A study of Mus musculus with 2 samples.

Results

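The genes described here are 9 components and targets of the Hedgehog pathway: the targets Gli1, Ptch1 and Hhip, the coreceptors Gas1, Cdon and Boc, the signal transducer Smo, and the transcription factors Gli2 and Gli3. They were taken as the probe sets whose only symbol in the platform annotation is that of a member, which gave 24 probe sets for 9 genes, out of 45037 probe sets other than controls and 18193 genes. Their signals were compared between embryonic fibroblasts homozygous for the L307R allele of Phc2 (Phc2 L307R/L307R) and wild type embryonic fibroblasts. The Phc2 protein belongs to Polycomb repressive complex 1, which keeps developmental genes silent, and the allele alters its SAM domain, through which Phc2 molecules polymerise. The labels give the strain C57BL/6, embryonic day 12.5 and passage 1 for both cultures, in serum-containing medium on gelatin-coated dishes, and do not say how many embryos went into each. There was 1 Affymetrix array per genotype, so no value has a replicate and no difference was tested. The question addressed is how the transcripts of this developmental pathway differ when Phc2 carries the change.

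In Hedgehog signalling, a secreted ligand binds the membrane protein Ptch1, which otherwise holds Smo inactive. Active Smo acts in the primary cilium on Gli2 and Gli3, which are processed to repressors without ligand and act as activators with it. The transcription of Gli1, Ptch1 and Hhip is raised by the pathway, so these transcripts are used as readouts of its activity, and Ptch1 and Hhip, which bind the ligand, also restrain it. Gas1, Cdon and Boc bind the ligand on the cell surface and help to present it to Ptch1. In the embryo the pathway patterns the limb and the neural tube and controls cartilage growth.

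The promoters of 4 members are shown because these genes differ both in their signal ratios, given further on, and in the CpG content of the bases upstream of their start, a feature of promoters that Polycomb complexes bind in other mouse cells. They were thus chosen with their ratios known, and a relation of CpG content to ratio was not tested. The sequences are those of RefSeq on GRCm38.p6, the 250 bases before the annotated start, written 5′ to 3′ on the strand of the gene, with each CpG in capitals.
Hhip promoter, chr8:80058009-80058258, minus strand: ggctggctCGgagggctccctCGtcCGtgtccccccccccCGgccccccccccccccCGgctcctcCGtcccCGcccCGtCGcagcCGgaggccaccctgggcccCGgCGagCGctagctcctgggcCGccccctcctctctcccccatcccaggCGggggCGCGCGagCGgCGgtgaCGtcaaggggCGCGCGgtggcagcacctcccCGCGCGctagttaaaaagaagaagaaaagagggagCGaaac
Ptch1 promoter, chr13:63565736-63565985, minus strand: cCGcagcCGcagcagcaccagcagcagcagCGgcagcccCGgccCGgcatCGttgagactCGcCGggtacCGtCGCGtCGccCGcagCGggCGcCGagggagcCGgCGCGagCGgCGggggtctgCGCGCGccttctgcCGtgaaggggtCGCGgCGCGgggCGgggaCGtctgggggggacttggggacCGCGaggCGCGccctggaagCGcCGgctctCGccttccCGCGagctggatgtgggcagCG
Gas1 promoter, chr13:60177536-60177785, minus strand: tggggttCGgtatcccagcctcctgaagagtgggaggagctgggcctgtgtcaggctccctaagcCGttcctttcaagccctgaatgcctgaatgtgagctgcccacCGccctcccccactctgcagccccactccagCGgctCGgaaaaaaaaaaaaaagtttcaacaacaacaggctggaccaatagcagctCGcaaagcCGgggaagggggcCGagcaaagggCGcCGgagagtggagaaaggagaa
Cdon promoter, chr9:35451826-35452075, plus strand: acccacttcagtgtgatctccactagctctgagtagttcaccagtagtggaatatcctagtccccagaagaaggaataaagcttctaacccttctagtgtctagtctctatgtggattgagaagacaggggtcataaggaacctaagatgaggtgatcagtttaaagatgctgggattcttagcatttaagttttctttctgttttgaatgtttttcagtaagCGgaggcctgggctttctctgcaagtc

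The Hhip window held 28 CpG dinucleotides and that of Ptch1 held 41, while Gas1 had 10 and Cdon 1. The median over 32851 promoter windows was 6. Of the 7 members with a promoter in the table, Gli3 had 34, Gli2 had 22 and Smo had 15, so Cdon alone among them lay below that median. Of the measured members, Gas1 had the highest signal ratio and Gli3 the lowest. The consensus Gli binding site GACCACCCA was searched on both strands, with no other motif. It was in 0 of the 7 windows and in 0.225% of all windows, which says only that these letters do not occur in these stretches.

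A signal is the linear MAS5 value of a probe set, and a log2 ratio is that of Phc2 L307R over wild type. The floor was set at a signal of 94.8, the higher of the medians of both arrays. A lower signal was raised to the floor and the ratio then written as at least that large, and a gene or probe set with a signal over the floor in either culture was called measured. Where a gene has several probe sets, the one brightest on average (on the log2 scale) stands for it as its main probe set. Signals of different probe sets depend on their probes and were not set against each other. The only error at hand is technical: the log2 ratios of probe sets of 1 gene had an SD of 0.32 in the 5460 genes for which 2 or more were measured.

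Of the 9 members, 8 were measured, all of them above the floor on both arrays. The highest ratios were those of the coreceptor Gas1 and the target Hhip. Gas1 was 1.94-fold higher in Phc2 L307R and Hhip 1.64-fold higher. These 2 of 8 were the only members at least 1.5-fold apart, against 4.19% of 11408 measured genes that were at least 1.5-fold higher and 3.25% at least 1.5-fold lower. No member differed 2-fold, a size reached by 0.579% of measured genes in the higher and 0.535% in the lower direction. Gli1, the transcript most directly tied to pathway activity, lay below the floor on both arrays.

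All 8 measured members had a log2 ratio above 0, as did 59.1% of all measured genes, and the ratios of Gli3 and Cdon turned below 0 when ratios were centred on the median of measured genes. The median was 0.23 over the 8 members and 0.06 over all measured genes. Of the 24 probe sets, 18 were measured, 17 of them above the floor on both arrays. Of those 17, 16 had a ratio above 0, and so did 54.8% of all probe sets above the floor on both arrays. In 6 of the 7 members with at least 2 probe sets above the floor on both arrays, every such probe set was higher in Phc2 L307R. This held for 26.5% of all genes with at least 2 of them.

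**Figure D1:**
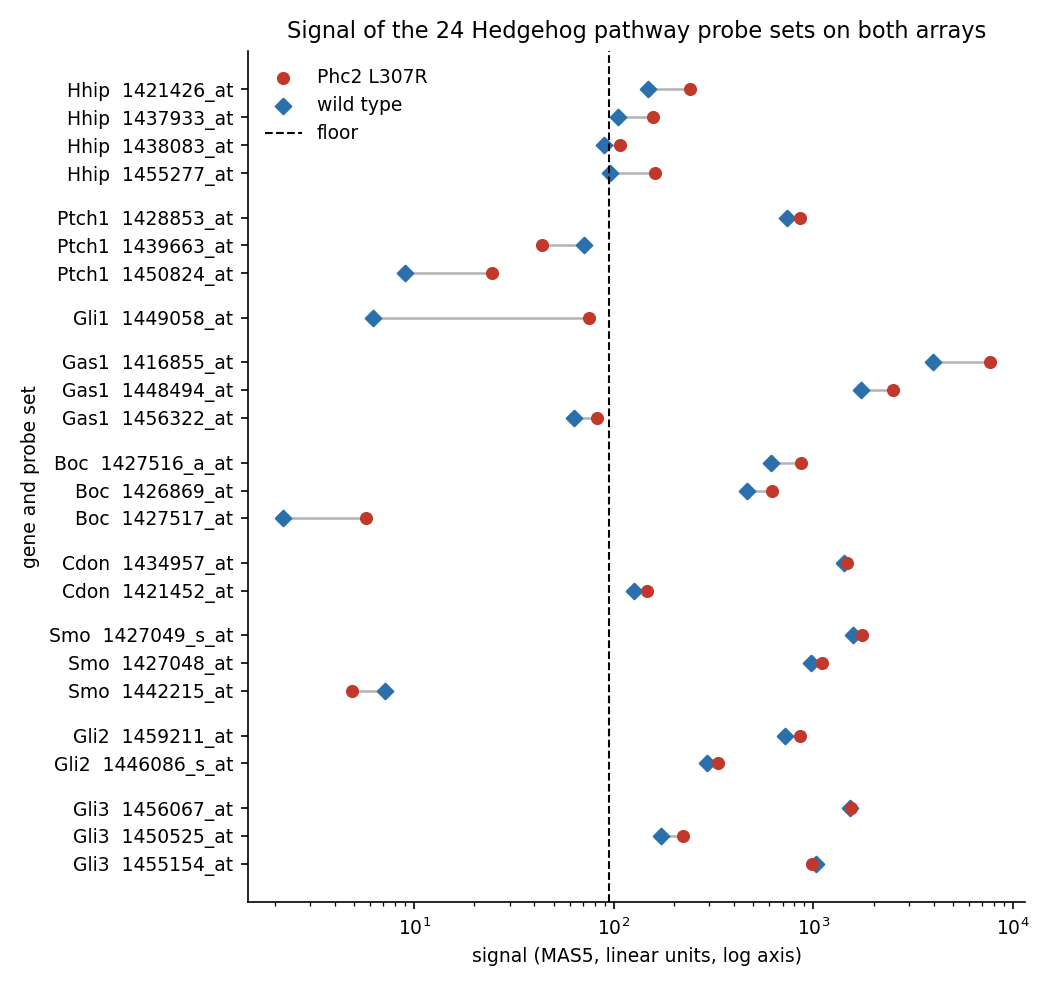
Signal (MAS5, linear units on a log axis) of each of the 24 probe sets of the 9 genes, with circles for the Phc2 L307R array and diamonds for the wild type array, 1 array each, and the floor of 94.8 as a dashed line. The main probe sets of Gas1 and Boc lie well to the right of the floor in both cultures, the 4 Hhip probe sets lie close to it, and Gli1 lies left of it on both arrays.

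Hhip encodes a membrane protein that binds Hedgehog ligands and competes with Ptch1 for them. Its main probe set, 1421426_at, had a signal of 242 in Phc2 L307R, against 147 in wild type, a log2 ratio of 0.71. At 1455277_at the signals were 161 in Phc2 L307R and 95.5 in wild type, a log2 ratio of 0.75. Both probe sets were thus higher in Phc2 L307R by similar amounts. At 1437933_at the signals were 158 in Phc2 L307R and 105 in wild type, a log2 ratio of 0.59. At 1438083_at they were 108 in Phc2 L307R and 89.1 in wild type, which lies below the floor, a log2 ratio of at least 0.18. This probe set counts as measured only through Phc2 L307R, so its direction is no evidence. The 3 Hhip probe sets above the floor on both arrays were higher in Phc2 L307R, each at least 1.5-fold, as were 3.87% of all measured probe sets. At least 2 probe sets reached that size in 0.788% of genes with 2 or more measured. The Hhip signals lay close to the floor, in the dimmest 25% of measured genes, of which 8.70% were at least 1.5-fold higher, so a ratio of this size is more frequent there than among brighter genes. Under a floor at the 60th percentile of signal, 176.2, the wild type signal was raised to the floor. The Hhip log2 ratio was then at least 0.45, a lower bound and not a smaller measured difference.

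Ptch1, the ligand receptor and itself a target, gave 856 in Phc2 L307R and 737 in wild type at 1428853_at, a log2 ratio of 0.22. This 1.16-fold difference is smaller than the SD between probe sets. The other 2 probe sets lay below the floor on both arrays and gave no ratio, with signals of 43.7 and 24.4 in Phc2 L307R, against 71 and 9 in wild type. Ptch1 thus rested on 1 probe set.

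Gli1, the activator that the pathway itself induces, has 1 probe set, 1449058_at. Its signal was 75.2 in Phc2 L307R and 6.2 in wild type. Both values are under the floor, so no fold is given. Of the 3 activity readouts, then, Hhip was higher in Phc2 L307R, Ptch1 differed by less than the SD between probe sets, and Gli1 was not measured.

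Gas1, a GPI-anchored protein first known from growth-arrested mouse fibroblasts and later as a coreceptor, had a signal of 7668 in Phc2 L307R, against 3948 in wild type, at 1416855_at. The log2 ratio was 0.96, and only 73 of the 11408 measured genes had a higher one. At 1448494_at the signals were 2514 in Phc2 L307R and 1729.8 in wild type, a log2 ratio of 0.54. Both measured probe sets were higher in Phc2 L307R, and their ratios lay 0.42 apart. The probe set 1456322_at lay below the floor, with 82.2 in Phc2 L307R and 63.3 in wild type. Gas1 belonged to the brightest 25% of measured genes, of which 1.23% were at least 1.5-fold higher.

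Boc, an immunoglobulin and fibronectin repeat protein of the cell surface, gave signals of 862 in Phc2 L307R and 613 in wild type at 1427516_a_at, a log2 ratio of 0.49. At 1426869_at the signals were 621 in Phc2 L307R and 463 in wild type, a log2 ratio of 0.42. These probe sets lay 0.07 apart, both higher in Phc2 L307R. Of measured genes, 92.9% had a lower log2 ratio than Boc. The remaining probe set, 1427517_at, was far below the floor, at 5.7 in Phc2 L307R and 2.2 in wild type.

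Cdon, a close relative of Boc with the same kinds of repeats, was nearly level between the cultures. Its signal at 1434957_at was 1471 in Phc2 L307R and 1428 in wild type, a log2 ratio of 0.04. At 1421452_at it was 146 in Phc2 L307R and 126 in wild type, a log2 ratio of 0.21. The coreceptors thus differed among themselves, with log2 ratios of 0.96 for Gas1, 0.49 for Boc and 0.04 for Cdon.

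**Figure D2:**
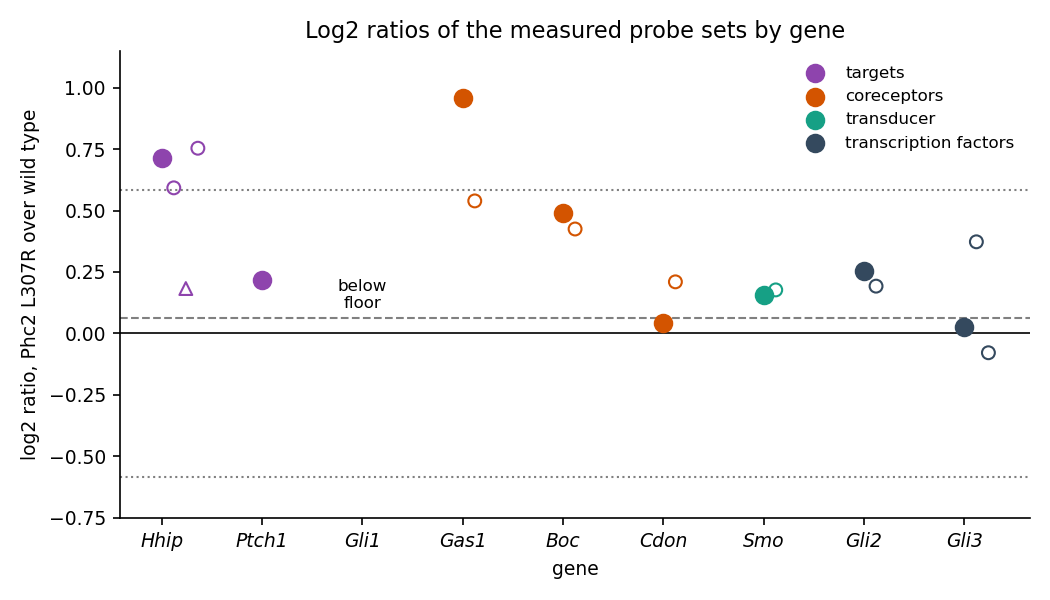
Log2 ratio of Phc2 L307R over wild type (vertical axis) for each measured probe set, by gene and coloured by role, with filled circles for the main probe set of a gene, open circles for its others and a triangle for a ratio that is a lower bound. Dotted lines mark 1.5-fold in either direction and the dashed line the median of all measured genes, 0.06. Gas1 at 0.96 and Hhip at 0.71 lie above the upper dotted line, and Gli3 spans 0.

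Set side by side, the targets had a median log2 ratio of 0.46 over the 2 measured, Hhip at 0.71 and Ptch1 at 0.22, and the coreceptors had 0.49 over 3, from 0.04 to 0.96. The medians differed by -0.03 (targets minus coreceptors), far less than the spread within either group. This difference turned to 0.22 without a floor, where Gli1 enters with signals of 75.2 in Phc2 L307R and 6.2 in wild type. The remaining members lay lower, with a median of 0.16 over Smo, Gli2 and Gli3.

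Smo, the membrane protein that passes the signal into the cell, gave signals of 1759 in Phc2 L307R and 1578 in wild type at 1427049_s_at, a log2 ratio of 0.16. At 1427048_at the signals were 1099 in Phc2 L307R and 972 in wild type, a log2 ratio of 0.18. Its probe sets agree to within 0.02 on a ratio smaller than the SD between probe sets. The probe set 1442215_at was at 4.9 in Phc2 L307R and 7.1 in wild type, both below the floor.

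Gli2, the main activator of the pathway in the mouse embryo, gave signals of 855 in Phc2 L307R and 717 in wild type at 1459211_at, a log2 ratio of 0.25. Its second probe set, 1446086_s_at, had 334 in Phc2 L307R and 292 in wild type, a log2 ratio of 0.19. Both ratios point the same way and stay below the SD between probe sets.

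Gli3, the source of the main repressor of the pathway in limb and trunk, was the member with the lowest main ratio. The signals at 1456067_at were 1547 in Phc2 L307R and 1517 in wild type, a log2 ratio of 0.03. At 1455154_at they were 980.5 in Phc2 L307R and 1035 in wild type, a log2 ratio of -0.08. The dimmer 1450525_at was at 222 in Phc2 L307R and 172 in wild type, a log2 ratio of 0.37. That is close to the SD of 0.32 between probe sets. Gli3 is thus the 1 member whose measured probe sets pointed in both directions.

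**Figure D3:**
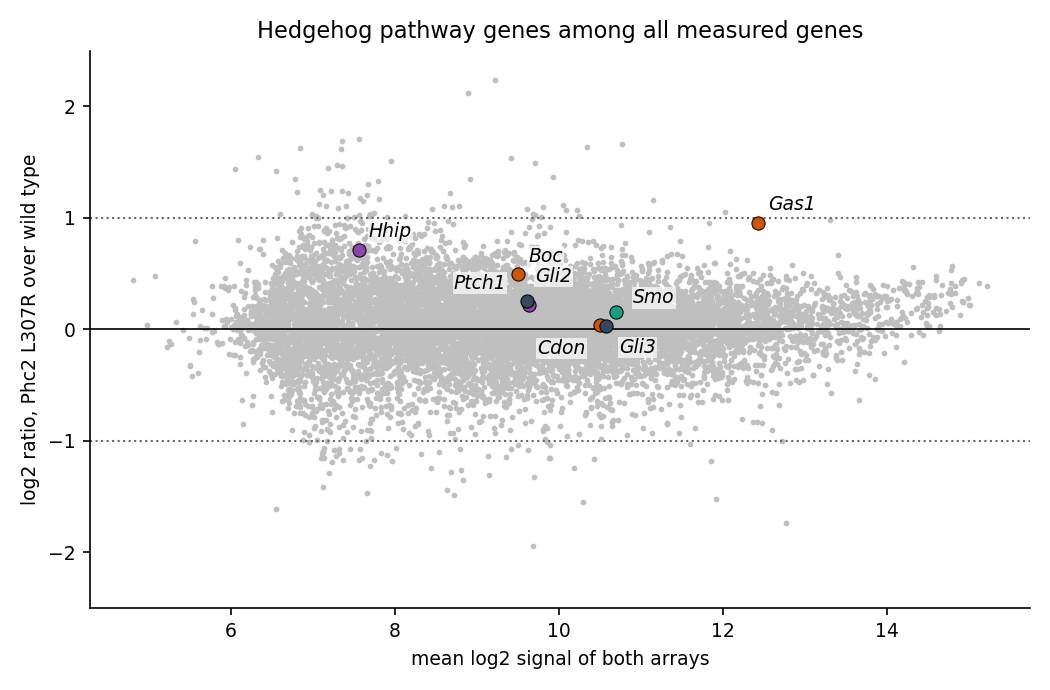
Log2 ratio of Phc2 L307R over wild type (vertical axis) against the mean log2 signal of both arrays (horizontal axis) for 11408 measured genes in grey, with the 8 measured Hedgehog genes coloured by role and dotted lines at 2-fold. Gas1 lies near the upper edge of the genes of similar signal, Hhip lies among dim genes where ratios spread widely, and 3 genes fall outside the vertical range.

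The rest of the pathway was described from lists written from general knowledge, but with earlier results of these data known. Beside the counts that follow, 59.1% of all measured genes had a ratio above 0. Of 9 genes for ligands and their release, 6 were measured, but Scube1 and Ihh only through Phc2 L307R, which fixes their direction. Of the 4 above the floor on both arrays, 3 had a ratio above 0 and 1 below, with a median log2 ratio of 0.22. None of the 6 was 1.5-fold apart. Scube1, a secreted protein that aids ligand release, was at 131 in Phc2 L307R and 28.6 in wild type, below the floor, a log2 ratio of at least 0.46. Disp1, which releases the lipid-bearing ligand from the cells that make it, was at 1068 in Phc2 L307R and 780 in wild type, a log2 ratio of 0.45. The ligands themselves lay near or below the floor. Sonic hedgehog (Shh) had 214 in Phc2 L307R and 160 in wild type, a log2 ratio of 0.42. Indian hedgehog (Ihh) had 123 in Phc2 L307R and 77.6 in wild type, a log2 ratio of at least 0.38, and desert hedgehog (Dhh) lay below the floor on both arrays. Shh, Ihh and Dhh were named after their values were seen.

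Other surface proteins that bind the ligand, 4 of them measured, had a median of 0.12 and none was 1.5-fold apart, with the glypican Gpc6 at 0.31 and the endocytic receptor Lrp2 at -0.26. Of 13 genes that act between Smo and Gli, all measured, 7 had ratios above 0 and 6 below, with a median of 0.10. Only Fkbp8, an immunophilin that restrains the pathway in the mouse neural tube, was 1.5-fold apart, at 1575 in Phc2 L307R and 1042 in wild type, a log2 ratio of 0.60 from a single probe set. Of 7 cilium genes above the floor on both arrays, 3 had ratios above 0 and 4 below, with a median of -0.07, and the ratios reached from -0.25 (Ift172) to 0.36 (Kif3b, a motor subunit). The 11 kinases and degradation factors of Gli proteins had a median of -0.10, with 4 above 0 and 7 below, between -0.33 for the kinase Csnk1a1 and 0.37 for the adaptor Numb.

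Of 18 further genes known as Hedgehog targets in 1 tissue or another, 13 lay above the floor on both arrays, 9 with a ratio above 0 and 4 below, and their median was 0.13. Jag2, a Notch ligand, was 1.71-fold higher, at 169.9 in Phc2 L307R and 99.3 in wild type, just over the floor of 94.8. Its other probe set, 1426431_at, lay below the floor. Mycn, a transcription factor of proliferating progenitors, was 1.87-fold lower at its main probe set, at 148 in Phc2 L307R and 277 in wild type. A second measured probe set of Mycn, 1425923_at, pointed the other way, at 283 in Phc2 L307R and 101 in wild type, a log2 ratio of 1.49, so the array gives Mycn no direction. The median of the list, 0.13, lay between that of all measured genes, 0.06, and that of the 8 measured members, 0.23.

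**Figure D4:**
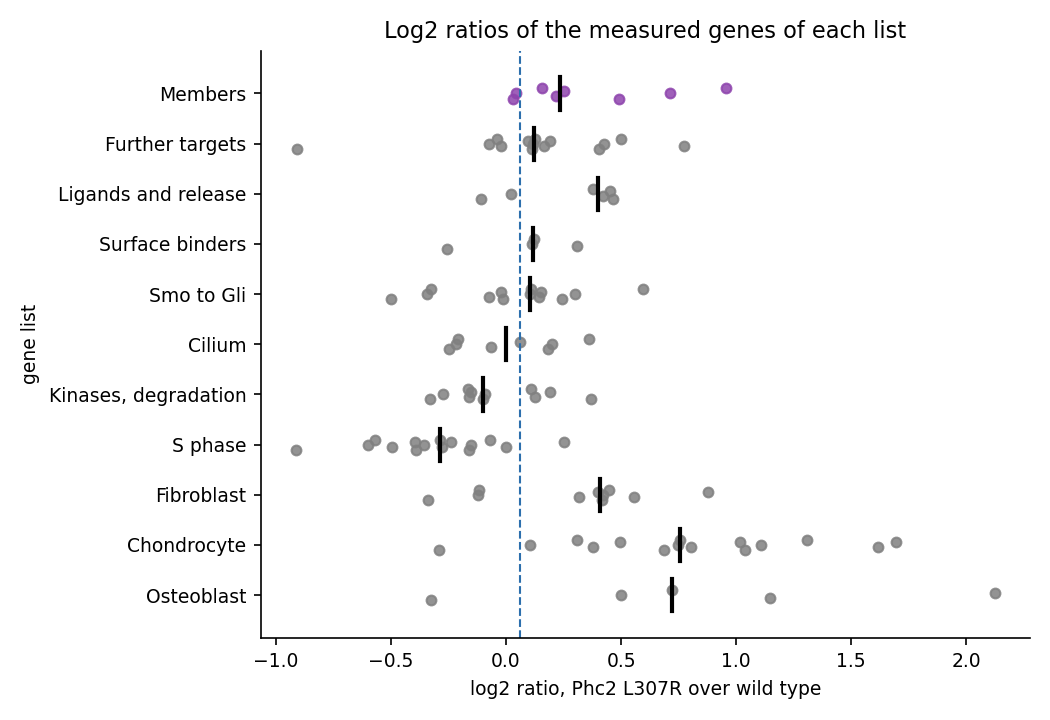
Log2 ratio of Phc2 L307R over wild type (horizontal axis) for each measured gene (points) of the 9 Hedgehog genes, of the further pathway lists and of the S phase and cell type lists, with a black bar at each median and a dashed line at 0.06, the median of all measured genes. The 8 measured members have their median at 0.23, the chondrocyte list at 0.75 and the S phase list at -0.29. Points and bars include genes over the floor in only 1 culture, whose ratios are bounds with a direction fixed by the floor. The bars are therefore at 0.40 for ligands and their release and at -0.002 for cilium genes. Without such genes these medians are 0.22 and -0.07, as given in the text.

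Groups outside the pathway were read in the same way, from lists chosen with earlier results of these data known. Of 11408 measured genes, 6738 (59.1%) had a ratio above 0 and 4664 below. At least 1.5-fold higher were 4.19% and at least 1.5-fold lower 3.25%. All 10 fibroblast markers were measured, 7 with a ratio above 0 and 3 below (among them Pdgfrb at -0.34), with a median of 0.41. Only Dcn (decorin), at a log2 ratio of 0.88, was 1.5-fold apart. The summed signal of the 10 was 163297 in Phc2 L307R, against 125132 in wild type. Its largest part came from Vim, at 41327 in Phc2 L307R and 30907 in wild type. The highest signal of any probe set was likewise 43746 in Phc2 L307R, against 33491 in wild type. Of 16 chondrocyte markers, 13 lay above the floor on both arrays, 12 with a ratio above 0 and 1, Sox9, below at -0.29. Of the 13, 8 were at least 1.5-fold higher: Acan, Col9a1, Col10a1, Col11a2, Comp, Epyc, Hapln1 and Snorc, most of them components of cartilage matrix. The median of the 13 was 0.75, with Col11a2 at 1.31. Cnmd and Matn1 were measured only through Phc2 L307R, at log2 ratios of at least 1.69 and 1.62. The summed signal of all 16 was 15365 in Phc2 L307R, against 10668 in wild type. None was at 0, and Col9a2 lay below the floor on both arrays. The 5 osteoblast markers used here had a summed signal of 1774 in Phc2 L307R, against 776 in wild type. Of the 4 above the floor on both arrays, Ibsp, Dlx5 and Alpl were at least 1.5-fold higher and Omd was at -0.33, while Sp7, below the floor in wild type, was at 0.50 or more. Of 15 S phase genes, 13 had a ratio below 0, with a median of -0.29 and Ccne2 (cyclin E2) and Pola1 (a DNA polymerase subunit) at least 1.5-fold lower, at -0.91 and -0.60. The part of these groups in the ratios of Gas1, Hhip and Boc was not tested. In bulk RNA, fewer cells of a type and less RNA per cell cannot be told apart.

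Markers of other cells were in part below the floor. Of 5 macrophage markers 3 were measured, with a median of 0.57 and a summed signal of 574 in Phc2 L307R, against 419 in wild type, with Csf1r and Lyz2 both at 0.57 and Cd68 at -0.11. Ptprc and C1qa, which define blood cells and macrophages, were below the floor on both arrays. Of the 3 measured endothelial markers, Emcn (endomucin) was at -1.15, with 94.9 in Phc2 L307R, just over the floor, and 210.8 in wild type. Kdr was at 0.05 and Tek, below the floor in wild type, at 0.44 or more. Pecam1 lay below the floor on both arrays. Of the 3 measured epithelial markers, the keratins Krt18, Krt5 and Krt8 were at -0.48, -0.31 and 0.06, with Epcam below the floor. Of 8 neural markers 4 were measured, 2 with ratios above 0 and 2 below: Tubb3 at 0.43, Sox2, below the floor in Phc2 L307R, at -0.33 or lower, Map2 at -1.31 and Nes (nestin) at 0.60, though its other probe sets gave 0.13 and -0.29. Phc2 itself, on chromosome 4, had log2 ratios of 0.36 and -0.02 at its 2 probe sets, and no member lies on that chromosome.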

How the data were processed

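Total RNA of 1 culture per genotype was labelled with biotin as cRNA and hybridised, per the labels' protocols. The intensity values deposited by the authors are linear signals of 45101 probe sets per array, made with MAS5 in Affymetrix Expression Console per the submitters' processing notes, which state no version. How the arrays were scaled is not stated there. After trimming 2% of values from either end, both had a mean of 500.0. No detection calls were used here. The number of arrays limits the precision.

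The 64 control probe sets were left out. Symbols came from the platform annotation, in which 34945 probe sets carried 1 symbol, 932 several and 9160 none, and were updated through a RefSeq table of GRCm38.p6 (34741 matched), used for names and chromosomes. Probe sets without a single symbol were not used. Calculations used Python 3.11.15, pandas 2.3.3 and statsmodels 0.14.6, and were tested on simulated arrays with planted differences. These differences all exceeded 2-fold and lay in genes well above the floor. Ratios as small as those of the members, and signals near the floor, were not covered by that test. With 1 array per group no p-value was computed. Counts were read against the share of all measured genes past the same fold.

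The genes named are all members with every probe set, and in each further list those at least 1.5-fold apart or otherwise the 2 of largest absolute log2 ratio. Others were named as defining markers or after their values were seen. Members and lists were chosen with earlier results of these data known. The alternatives were quantile normalization, loess, centring, a floor at the 40th or the 60th percentile or none, the floor as pseudocount, the mean over probe sets and the removal of _x_at and _s_at probe sets. List genes without a probe set of a single symbol were not analysed here.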

Additional observations from a re-analysis of the deposited data

How the results depend on the processing

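No replicate supports any value, and signals near the floor limit Hhip and Gli1 most. No paired analysis was possible because there is 1 array per genotype. Over 9 alternatives the median log2 ratio of the targets lay between 0.33 and 0.71, that of the coreceptors between 0.43 and 0.49, and their difference between -0.16 and 0.22, all moving by less than the SD between probe sets. Gas1 stayed between 0.75 and 0.96 and Hhip between 0.45 and 0.71. The 0.45 is a lower bound from the 60th percentile floor, and the difference of -0.16 rests on it. The count of members at least 1.5-fold apart, 2 as reported, was 1 for a 60th percentile floor, 1 for the floor as pseudocount and 1 for the mean over probe sets. Hhip then lay at 0.45 or more, 0.47, and 0.56 or more on the log2 scale. The 0.45 and 0.56 include wild type signals raised to the floor, so they are lower bounds and do not show a smaller difference. Without a floor the count was 3. The count at 2-fold, 0 as reported, was 1 without a floor, from Gli1, whose unfloored log2 ratio of 3.60 compares signals of 75.2 in Phc2 L307R and 6.2 in wild type. With the floor at the 40th percentile, Gli1 was at 0.39 or more. Of 72 values of the 8 measured members under the alternatives, 72 moved by less than the SD between probe sets. Many of them could not move, so this count does not show that the values are robust. The 40th percentile floor and no floor left all 8 as reported. The 60th percentile floor changed only Hhip, and the removal of _x_at and _s_at probe sets only Smo. Centring lowered all 8 by the same 0.06. Another 0.32 would be a wide limit for Gli2, Ptch1, Smo, Cdon, Gli3 and the difference of medians, all smaller than it as reported. For these, a move within the SD does not show that the direction held. In centred ratios, 2 member values changed sign, those of Gli3 and Cdon (-0.03 and -0.02).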
